A study of Mus musculus with 9 samples.

Results

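The core loop of the circadian clock was followed through 10 genes chosen by symbol for their role, among 45513 genes counted in mouse liver. They are the activators Arntl and Clock, the repressors Per1, Per2, Per3, Cry1 and Cry2, the nuclear receptors Nr1d1 and Nr1d2, and the repressor Ciart. All 10 had counts, and 9 of them were among the 12102 genes that passed a filter on low counts. Arntl did not pass it and is described by its counts. The 10 genes were chosen with earlier results of these data known. Their counts set beside shares of all genes are therefore a description and no test of the list.

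RNA sequencing was done on livers of C57BL/6 mice with no altered allele named, each kept for 9 weeks on its diet and agent. There were 3 groups of 3 libraries. Mice on normal diet received vehicle (normal diet livers), and mice on high fat diet received either vehicle (high fat vehicle livers) or B-LGND2 (B-LGND2 or treated livers). B-LGND2 is known here by this code name, and the title of the series presents an estrogen receptor beta ligand. There is no group on normal diet with B-LGND2. Poly(A) RNA of whole liver was sequenced, so fewer cells of a type and less RNA per cell cannot be told apart. The sources used here do not give the dose, the make-up of the diets, the sex or the hour at which livers were taken. An hour of collection that differed between groups therefore cannot be told apart from diet or ligand.

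In the liver clock, the proteins of Clock and Arntl (BMAL1) pair and activate genes through a DNA element called the E-box, among them the Per, Cry and Nr1d genes and Ciart. PER and CRY proteins return to the nucleus and inhibit that pair. The products of Nr1d1 and Nr1d2, the REV-ERB receptors, repress Arntl in a second loop, and as a result Arntl RNA is low at the hours when Nr1d1 and Per RNA are high. Liver clock genes also follow feeding time and glucocorticoid hormone, so their levels in a single collection depend on when tissue was taken.

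Libraries held 5778978 to 10322972 counts. Markers of hepatocytes, the main liver cell, were all above 0 in every library and summed to 69413 to 109023 counts per 1e6 counts (CPM), with overlapping groups. Gene models of ribosomal RNA (rRNA) took 3.16% to 3.74% of counts in normal diet livers, 0.901% to 1.44% in high fat vehicle livers and 4.31% to 6.19% in B-LGND2 livers. Mitochondrially encoded RNA was high in normal diet replicate 1, with 12.7% of counts against 3.69% to 6.12% elsewhere. The rank correlation across genes between transcript length and a library's deviation from the mean ran from 0.299 to 0.359 in the high fat vehicle group and from -0.504 to 0.204 in the other libraries. For GC content this correlation reached 0.501 in B-LGND2 replicate 1, and no other library exceeded 0.0808. The part of library composition in the changes below was not tested beyond the fits reported with them.

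The promoter letters of some of the repressors are shown because E-boxes are the elements on which the loop closes. RefSeq windows of 250 bases before an annotated start (build GRCm38.p6) were found for 9 of the 10 genes, 13 windows in all. Motifs were searched in the whole windows, and the stretches printed here leave out bases of the gene's annotated exons. In Per1 (chr11:69098699-69098947, plus strand, inside the annotated gene span and between its exons), Ciart (chr3:95882252-95882478, minus strand) and Cry1 (chr10:85185065-85185304, minus strand) the capitals mark the E-box CACGTG.
Per1: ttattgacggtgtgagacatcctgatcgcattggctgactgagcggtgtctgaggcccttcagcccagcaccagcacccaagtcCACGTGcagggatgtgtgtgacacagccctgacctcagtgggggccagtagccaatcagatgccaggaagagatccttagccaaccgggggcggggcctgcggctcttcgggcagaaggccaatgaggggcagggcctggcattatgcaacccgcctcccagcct
Ciart: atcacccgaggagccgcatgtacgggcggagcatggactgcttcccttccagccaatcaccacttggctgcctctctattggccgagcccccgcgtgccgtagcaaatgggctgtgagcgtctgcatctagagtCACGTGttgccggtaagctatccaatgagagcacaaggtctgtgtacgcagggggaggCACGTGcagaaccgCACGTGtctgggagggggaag
Cry1: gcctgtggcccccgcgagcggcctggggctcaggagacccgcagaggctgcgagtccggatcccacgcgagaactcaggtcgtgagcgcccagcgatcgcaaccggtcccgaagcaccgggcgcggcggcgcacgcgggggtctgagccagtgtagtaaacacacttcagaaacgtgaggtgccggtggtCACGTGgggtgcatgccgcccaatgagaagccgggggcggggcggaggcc
Ciart carried 3 E-boxes, which began 116, 58 and 44 bases before its start. Cry1 carried 1 at 60 bases, and Per1 carried 1 at 166 bases in window 1 and none in its window 2. In all, 3 of the 13 windows of these genes held the motif, beside 6.02% of 32851 windows of this length over all genes.

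Per3 had no E-box in its window (chr4:151044666-151044915, minus strand). It held 2 copies of the D-box TTATGTAA, the element of the output factors Dbp, Tef, Hlf and Nfil3. At least 1 copy was found in 0.819% of all windows and in 1 of the 13 windows of these genes. The capitals mark the 2 copies in Per3, at 205 and 158 bases before the start.
Per3: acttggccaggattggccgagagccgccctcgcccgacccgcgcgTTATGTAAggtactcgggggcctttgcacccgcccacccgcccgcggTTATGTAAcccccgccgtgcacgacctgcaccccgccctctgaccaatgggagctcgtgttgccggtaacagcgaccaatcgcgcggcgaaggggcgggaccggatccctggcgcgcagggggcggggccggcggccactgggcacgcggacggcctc
Other motifs were searched on both strands in the same way. The E-box-like CACGTT (3.85% of all windows) was found in Cry1, Cry2 and Nr1d1. AGGTCA, the core bound by ROR and REV-ERB receptors (14.0%), was found in Clock, Nr1d2 and Per1. The cAMP response core TGACG (17.8%), a part of the full element TGACGTCA, was found in Cry1, Cry2 and Per1, and the full element (1.55%) in none of the 13 windows. A match describes letters and shows no binding.

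**Figure D1:**
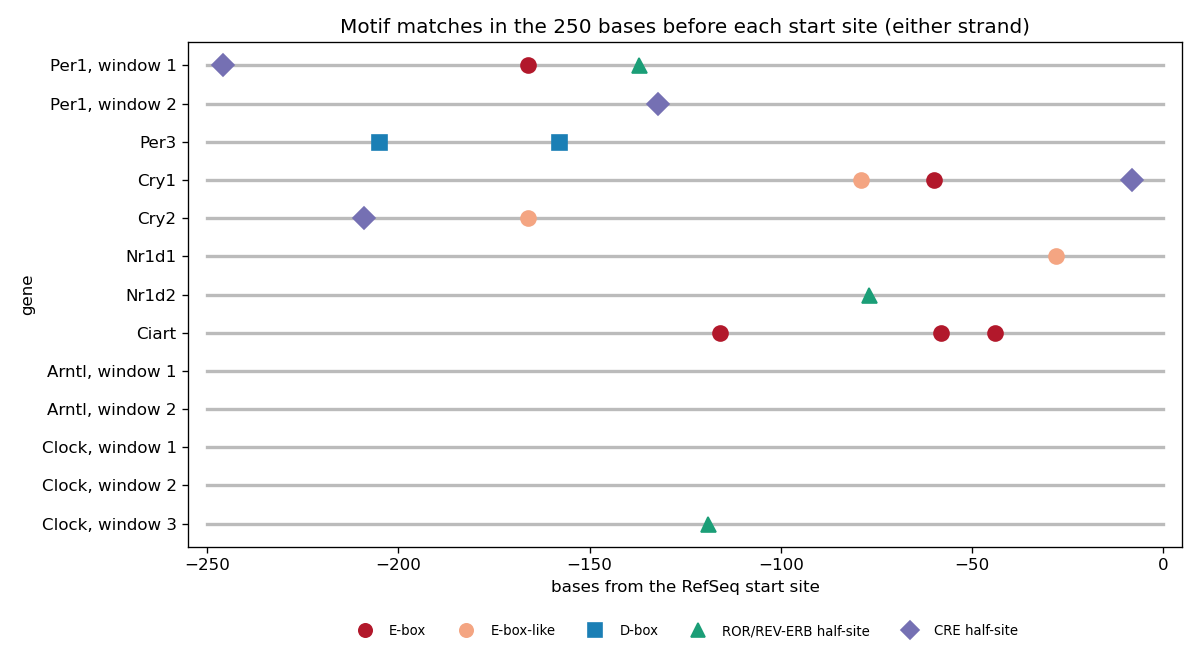
Positions of the searched motifs in the promoter windows of the clock genes, in bases before the annotated start (horizontal axis), with 1 row per window and 1 marker per match. Ciart shows 3 E-boxes within 116 bases of its start, and Per3 shows 2 D-boxes.

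Arntl, the activator that the REV-ERB receptors repress (chr7:113207465-113314126, GRCm38, like all gene spans below), had very few counts. It had 2, 2 and 2 counts in normal diet livers, 1, 2 and 3 in high fat vehicle livers and 3, 13 and 3 in B-LGND2 livers. Of its 31 counts in all, B-LGND2 replicate 2 held 13 and each of the other 8 held 1 to 3. A library's 3 counts stand at 0.35 to 0.50 CPM, so levels of Arntl in most libraries lie at or under what a count of 3 resolves. Without the filter, edgeR gave it a ligand log2 fold change of 1.55 (adjusted p = 0.484) and a diet value of -0.03.

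Clock, the partner of Arntl (chr5:76209868-76304792), was present in every library. It stood at 18.7, 14.1 and 9.82 CPM in normal diet livers, 17.8, 18.8 and 20.4 CPM in high fat vehicle livers and 13.6, 27.2 and 22.1 CPM in B-LGND2 livers. All 3 groups overlapped, and the highest value was again B-LGND2 replicate 2. The log2 fold change was 0.42 for diet (SE 0.29, 95% interval -0.20 to 1.04, adjusted p = 0.414) and 0.14 for B-LGND2 against vehicle (SE 0.29, adjusted p = 0.808). The sign of that second value turned without scaling, to -0.0074, and without B-LGND2 replicate 2, to -0.07.

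Per1 was called for diet and for the ligand. Its product binds CRY proteins in the inhibiting complex, and its gene (chr11:69095217-69109960) also answers directly to hormonal and cAMP signals. It stood at 32.4, 27.5 and 25.4 CPM in normal diet livers, 78.8, 63.2 and 74.9 CPM in high fat vehicle livers and 29.3, 37.2 and 29.3 CPM in B-LGND2 livers. The 3 high fat vehicle libraries lay above all 6 others, and the other groups overlapped.

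On the high fat diet Per1 rose 2.54-fold, from 28.4 ± 3.60 to 72.3 ± 8.14 CPM (mean ± SD, n = 3 per group). The log2 fold change was 1.35 (SE 0.22, adjusted p = 0.00703, edgeR quasi-likelihood, Benjamini-Hochberg over all 12102 genes). Per1 was called in all 9 fits from which 1 library was dropped (adjusted p up to 0.0478). Over all 21 alternative fits its diet log2 fold change ran from 0.94 to 1.51. The diet call was lost in 1 of them, with the rRNA share as a covariate (adjusted p = 0.319). With B-LGND2 Per1 fell to 31.9 ± 4.57 CPM, a log2 change of -1.18 (SE 0.22, adjusted p = 0.00829). That call was lost when high fat vehicle replicate 1 was left out (adjusted p = 0.05, log2 -1.11), and not in the other 8 such fits. Between treated livers and normal diet livers the log2 difference was 0.17, with a 95% interval of -0.29 to 0.63.

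Per2, the second PER repressor (chr1:91415982-91459324), rose with diet and did not pass the test for the ligand. It stood at 43.2, 27.0 and 17.4 CPM in normal diet livers, 64.8, 78.5 and 81.1 CPM in high fat vehicle livers and 44.0, 55.5 and 60.6 CPM in B-LGND2 livers. No group overlapped another, and the treated livers lay between the other groups. The diet log2 fold change was 1.36 (SE 0.28, adjusted p = 0.0229). That call was lost in 5 of 9 fits without a library, namely without normal diet replicate 2 or 3 or without any of the high fat vehicle libraries, with adjusted p values of 0.0583 to 0.0881. For B-LGND2 against vehicle the log2 fold change was -0.49 (95% interval -1.07 to 0.09, adjusted p = 0.29), and for treated against normal diet livers it was 0.87 (adjusted p = 0.104).

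Per3, a PER protein whose role in the loop is smaller (chr4:151003652-151044665), passed in no comparison. It stood at 44.6, 18.5 and 16.2 CPM in normal diet livers, 39.6, 46.9 and 42.0 CPM in high fat vehicle livers and 18.8, 16.0 and 30.5 CPM in B-LGND2 livers. Replicate 1 of the normal diet lay within the high fat vehicle range, while all B-LGND2 libraries lay below it. The log2 fold change was 0.70 for diet (SE 0.34, adjusted p = 0.236) and -0.98 for the ligand (SE 0.34, adjusted p = 0.0958). Without normal diet replicate 1, the library high in mitochondrial RNA, the diet value was 1.30 and passed (adjusted p = 0.00905), and the ligand value passed as well (adjusted p = 0.0225).

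**Figure D2:**
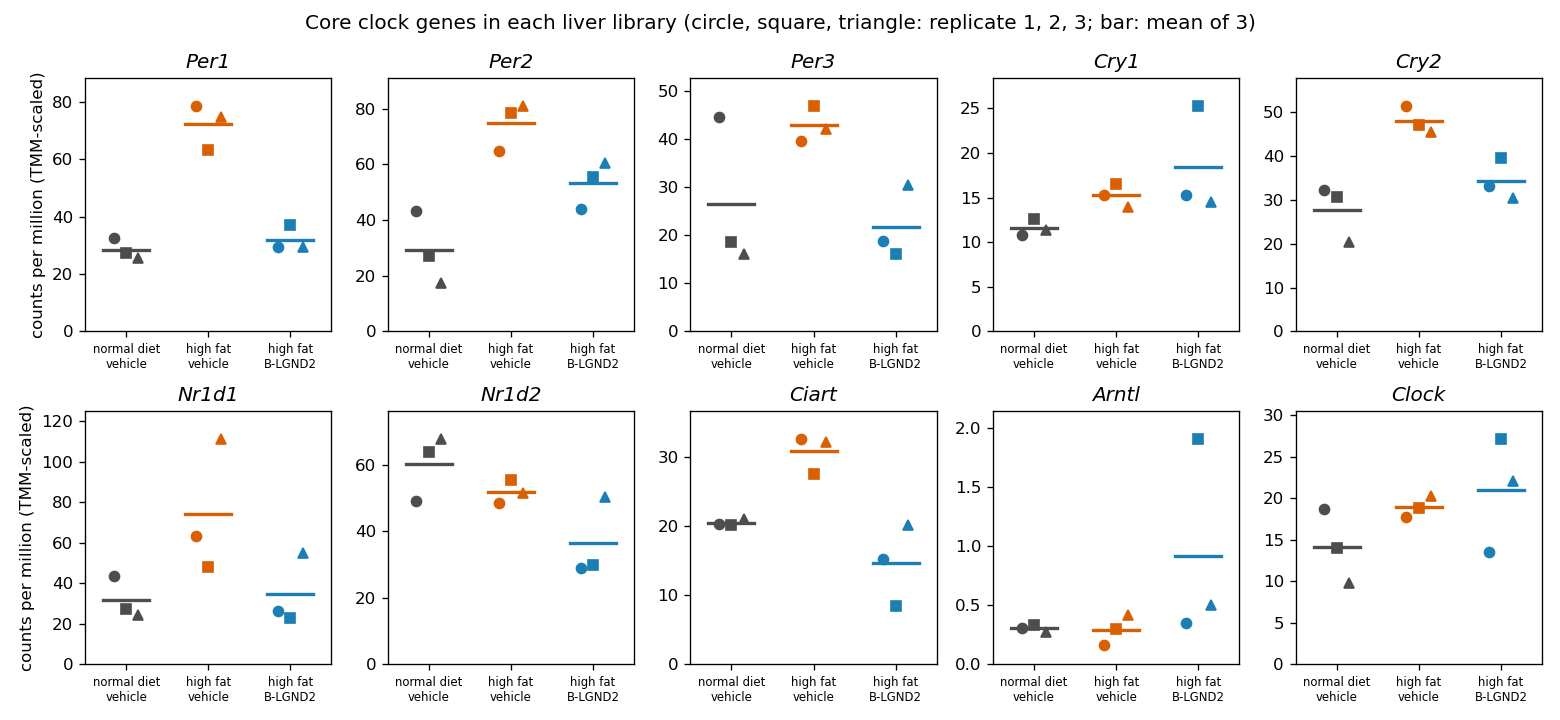
CPM of each clock gene in the 9 libraries by group, with a marker shape for each replicate and a horizontal bar at the mean of 3; each panel has its own vertical axis from 0. The 3 high fat vehicle libraries of Per1 lie at 63.2 to 78.8 CPM, above all 6 others, and 8 of the 9 Arntl values lie at or below 0.50 CPM.

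Cry1, a strong inhibitor of the Clock and Arntl pair (chr10:85131700-85185064), had a different order of groups from Per1. It stood at 10.8, 12.6 and 11.3 CPM in normal diet livers, 15.3, 16.5 and 13.9 CPM in high fat vehicle livers and 15.3, 25.3 and 14.5 CPM in B-LGND2 livers. All 6 high fat livers lay above the 3 normal diet livers, and the 2 high fat groups overlapped. No test passed: the log2 fold change was 0.40 for diet (SE 0.27, adjusted p = 0.389), 0.27 for the ligand (SE 0.26, adjusted p = 0.561) and 0.67 for treated against normal diet livers (adjusted p = 0.179). The ligand value was -0.01 without B-LGND2 replicate 2.

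Cry2, the second cryptochrome (chr2:92403646-92434043), stood at 32.1, 30.6 and 20.5 CPM in normal diet livers, 51.5, 47.1 and 45.4 CPM in high fat vehicle livers and 33.1, 39.4 and 30.3 CPM in B-LGND2 livers. High fat vehicle livers were highest without overlap, as for Per1, and the other groups overlapped. The diet log2 fold change of 0.79 (SE 0.23, 95% interval 0.30 to 1.28) did not pass (adjusted p = 0.0677), and it passed without normal diet replicate 1 (adjusted p = 0.0238) and in DESeq2 (adjusted p = 0.0245). The ligand value was -0.48 (SE 0.23, adjusted p = 0.211). Cry2 shares 295 exon bases with the opposite-strand transcript D930015M05Rik, and since the strand setting of the counting is not given, reads there cannot be assigned.

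Nr1d1, encoding REV-ERB alpha (chr11:98767932-98775333), had the widest range of the 9 tested members in high fat vehicle livers, with the highest value 2.32 times the lowest. It stood at 43.5, 27.5 and 24.3 CPM in normal diet livers, 63.3, 48.1 and 111.5 CPM in high fat vehicle livers and 26.2, 23.0 and 54.8 CPM in B-LGND2 livers. High fat vehicle livers lay above all normal diet livers but overlapped the treated group, whose replicate 3 exceeded high fat vehicle replicate 2. The log2 fold change was 1.23 for diet (SE 0.36, adjusted p = 0.0709) and -1.11 for the ligand (SE 0.36, adjusted p = 0.0792).

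Neither Nr1d1 value passed, although DESeq2 called both (adjusted p = 0.0198 and 0.0383). The diet value passed without normal diet replicate 1 (adjusted p = 0.0199) and the ligand value without B-LGND2 replicate 3 (adjusted p = 0.0331). Nr1d1 shares 263 of its 3077 exon bases with Thra on the opposite strand, which had 53 to 159 counts per library against 156 to 800 for Nr1d1.

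Nr1d2, encoding REV-ERB beta (chr14:18204054-18239127), did not share the order of Nr1d1. It stood at 49.1, 63.8 and 67.9 CPM in normal diet livers, 48.5, 55.3 and 51.6 CPM in high fat vehicle livers and 29.0, 30.0 and 50.5 CPM in B-LGND2 livers. Normal diet and high fat vehicle livers overlapped, and 2 of the 3 treated livers were lowest. The log2 fold change was -0.22 for diet (95% interval -0.73 to 0.30, adjusted p = 0.626), -0.51 for the ligand (adjusted p = 0.22) and -0.73 for treated against normal diet livers (adjusted p = 0.119). It was the only 1 of the 9 tested members with a negative diet value.

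Ciart, encoding the repressor CHRONO and carrying the 3 E-boxes shown above (chr3:95878503-95882251), fell with B-LGND2. It stood at 20.3, 20.2 and 21.0 CPM in normal diet livers, 32.7, 27.5 and 32.2 CPM in high fat vehicle livers and 15.3, 8.39 and 20.1 CPM in B-LGND2 livers. High fat vehicle livers were highest without overlap, and normal diet livers differed little among themselves. The ligand log2 fold change was -1.08 (SE 0.28, adjusted p = 0.0344), from 30.8 ± 2.84 to 14.6 ± 5.91 CPM (n = 3 each). That call was lost in 6 of 9 fits without a library, namely normal diet replicate 2, each high fat vehicle library, and B-LGND2 replicate 1 or 2, with adjusted p values of 0.0522 to 0.117. The diet value was 0.59 (SE 0.27, adjusted p = 0.214).

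Levels of different genes can be compared per kilobase of exon. In high fat vehicle livers Nr1d1 was highest, at 24.2 ± 10.8 CPM per kb, followed by Ciart at 13.6 ± 1.26, Per1 at 12.8 ± 1.45, Per2 at 12.8 ± 1.50 and Nr1d2 at 9.58 ± 0.635 CPM per kb. Ciart, Per1 and Per2 did not differ beyond their SDs. Cry2 (7.59 ± 0.492), Cry1 (4.57 ± 0.390), Per3 (4.46 ± 0.390) and Clock (1.38 ± 0.0933) were lower, with Cry1 and Per3 within their SDs of each other, and Arntl was lowest at 0.0392 ± 0.0168 CPM per kb.

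The order differed on normal diet. There Nr1d2, at 11.1 ± 1.83 CPM per kb, and Nr1d1, at 10.3 ± 3.34, lay within their SDs of each other, and Ciart, at 9.06 ± 0.205, lay within the SD of Nr1d1. Next came Per1 (5.05 ± 0.639), Per2 (4.99 ± 2.23) and Cry2 (4.39 ± 1.00), which also did not differ beyond their spread. In treated livers Nr1d1 (11.3 ± 5.69), Per2 (9.11 ± 1.45), Nr1d2 (6.74 ± 2.24) and Ciart (6.46 ± 2.61) had the highest means. Per1 (5.67 ± 0.812), Cry1 (5.50 ± 1.80) and Cry2 (5.43 ± 0.739) lay within the SDs of Nr1d2 and Ciart, so that order is not separated by the spread. Clock and Arntl were lowest in all 3 groups.

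**Figure D3:**
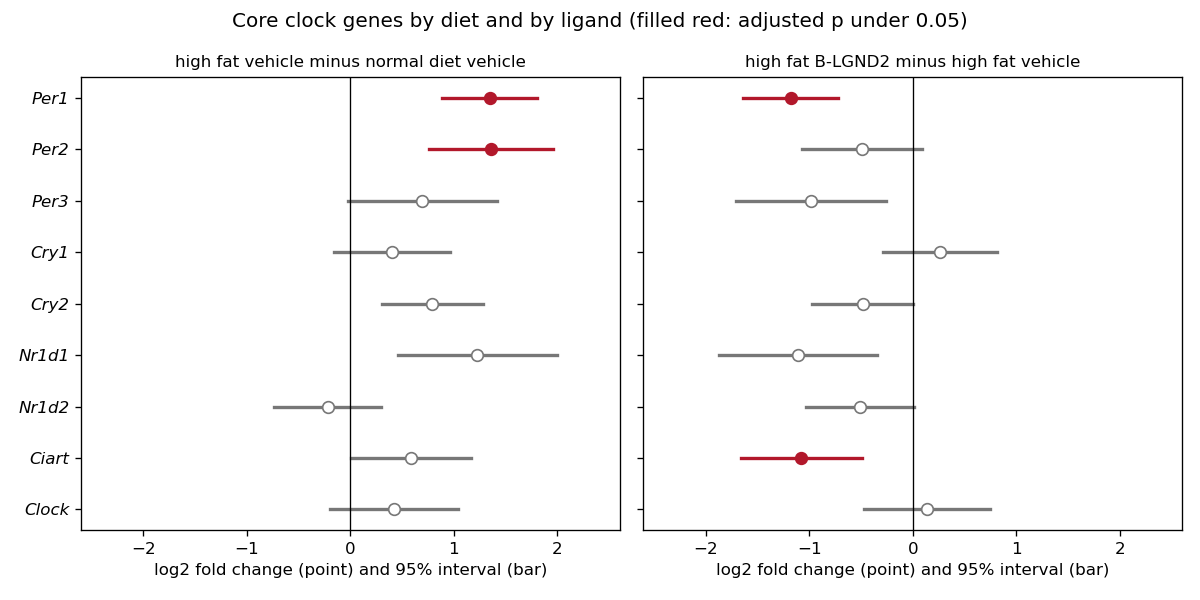
Log2 fold change (horizontal axis) of each tested clock gene for high fat vehicle minus normal diet (left) and B-LGND2 minus vehicle on high fat diet (right), with its 95% interval; filled red points passed an adjusted p of 0.05. Per1 lies at 1.35 for diet and -1.18 for B-LGND2, and Nr1d2 is the member left of 0 for diet.

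For diet, 2 of the 9 tested members were called higher (Per1 and Per2) and none lower, where 1.50% of all genes tested were called higher and 1.49% lower. The libraries of 6 members (Per1, Per2, Cry1, Cry2, Nr1d1 and Ciart) were higher without overlap, against 15.4% of all genes, and none were lower without overlap, against 14.8%. Their median log2 fold change was 0.70, and that of all genes 0.01. Without scaling beyond library size these medians were 0.86 and 0.17, the same 2 members were called, and 72.6% of all diet calls were higher in place of 50.3%. With offsets for transcript length and GC content the medians were 0.52 and -0.04, and the same 2 members were called. Leaving out normal diet replicate 1 raised the members called to 5 (Per1, Per2, Per3, Cry2 and Nr1d1). Calls over all genes then rose as well, from 362 of 12102 to 1860 of 12377. Leaving out normal diet replicate 2 or 3 or any high fat vehicle library lowered the members called to Per1 alone. In those fits calls over all genes fell to between 35 and 89.

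For B-LGND2 against vehicle, 2 members were called lower (Per1 and Ciart) and none higher, where 2.56% of genes were called lower and 3.07% higher. The libraries of 5 members (Per1, Per2, Per3, Cry2 and Ciart) were lower without overlap, against 17.2% of all genes, and none higher, against 16.4%. The median was -0.51, beside -0.0031 for all genes. Without scaling they were -0.66 and -0.18, the same 2 members were called, and 31.1% of all ligand calls were higher in place of 54.5%. With length and GC offsets they were -0.53 and 0.02, and the same 2 members were called. No member was called without high fat vehicle replicate 1, where calls over all genes went from 681 to 123. Per1 alone was called without normal diet replicate 2 (473 genes in all) or replicate 2 or 3 of the high fat vehicle group (100 and 184). It was also alone without replicate 1 or 2 of the B-LGND2 group (134 and 691 genes in all). Leaving out normal diet replicate 1 or 3 added Per3, with 1212 and 1439 genes called in all. Leaving out B-LGND2 replicate 3 added Nr1d1, with 421 genes called in all, and moved the members' median to -0.81. Both comparisons use the same high fat vehicle libraries, so a high value there enters each of them.

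Between treated and normal diet livers edgeR called none of the 9 members, where 2.93% of genes were called in either direction. DESeq2 and limma-voom also called 0, and 3 members had an unadjusted p under 0.05 (Per2, Cry1 and Nr1d2), beside 19.4% of all genes. The libraries of 3 members did not overlap: Per2 and Cry1 were higher and Ciart was lower, against 20.5% of all genes in either direction. The median of the members was 0.17, beside -0.0058 for all genes. It ran from 0.09 without normal diet replicate 3 to 0.41 without normal diet replicate 1, was 0.30 without B-LGND2 replicate 1, and was -0.080 with length and GC offsets. Per2 passed without normal diet replicate 1 (adjusted p = 0.017), and Nr1d2 without B-LGND2 replicate 3 (adjusted p = 0.0448).

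Other measures moved with these groups. Macrophage markers summed to 329 to 443 CPM in high fat vehicle livers and 1171 to 1503 CPM with B-LGND2; all 12 were higher, 10 of them called, and none was at 0. Of the 6 hepatocyte markers 2 were called higher with B-LGND2 (Apoa1 and Apoc3, apolipoproteins), and 2 others (Alb and Cps1) were lower without overlap and not called. Endothelial markers summed to 174 to 214 and 256 to 322 CPM, with 1 of 7 called. Their part in the fall of Per1 and Ciart was not tested. With the rRNA share as a covariate no member passed for diet or for the ligand, and the members' medians were 0.23 and 0.51; that share does not overlap between the groups, so the 2 cannot be told apart in such a fit.

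Ratios within a library need no scaling between libraries. The log2 ratio of Per1 to Arntl counts (with 0.5 added to each) was 6.38, 6.06 and 6.21 in normal diet livers, 8.32, 7.39 and 7.26 in high fat vehicle livers and 6.18, 4.23 and 5.66 in B-LGND2 livers. For Nr1d1 to Arntl it was 6.80, 6.06 and 6.14, then 8.00, 7.00 and 7.84, then 6.02, 3.54 and 6.56. In both ratios the 3 high fat vehicle livers were highest without overlap, and B-LGND2 replicate 2 was lowest of all. These ratios rest on the 1 to 13 counts of Arntl and are a description.

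**Figure D4:**
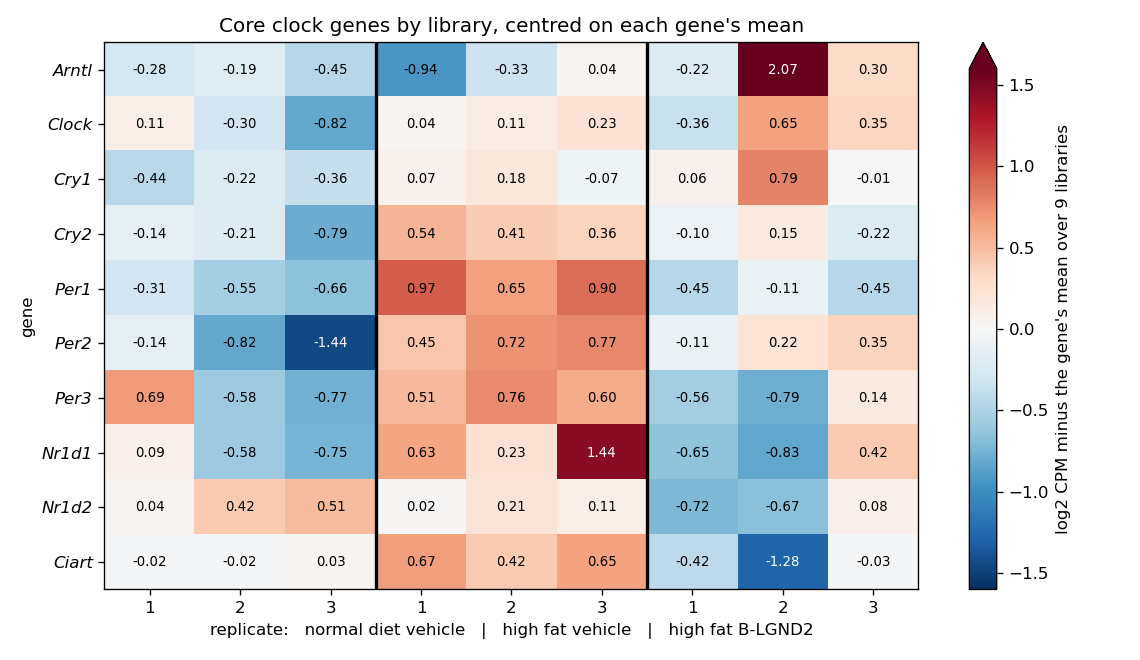
Log2 CPM of each clock gene in each library minus its mean over the 9 libraries (colour scale, saturated at its end), with genes in rows and libraries in columns. The high fat vehicle columns are above the mean for Per1 and Per2, and B-LGND2 replicate 2 is high for Arntl, Cry1 and Clock and low for Ciart.

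B-LGND2 replicate 2 had the highest Arntl, Cry1 and Clock and the lowest Ciart, Nr1d1 and Per3 of all 9 libraries. For Nr1d1 and Per3 the margin was small: 23.0 and 16.0 CPM, beside 24.3 and 16.2 CPM in normal diet replicate 3. For Nr1d1, Per3 and Nr1d2 it lay near replicate 1 of its group, and replicate 3 was higher than both. Without replicate 2, Per1 was the only member called for the ligand, with the Ciart log2 fold change at -0.78 (adjusted p = 0.077).

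Genes whose pattern was most like Per1 were sought by the root mean square difference of centred log2 CPM over the 9 libraries, among 7802 genes. The 5 nearest were Lta4h (0.223), Tob2 (0.230), Slc23a2 (0.244), Khnyn (0.251) and Arhgef3 (0.251), against a median of 0.686 over all genes compared. For Nr1d1 they were Ppp1r9a (0.270), Crebzf (0.291), Pim1 (0.301), Tymp (0.339) and Pnisr (0.344), against a median of 0.792. The genes were picked by this measure, so their place below the median was fixed by the choice and is no test.

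The loop's other components are regulators such as the ROR receptors, the casein kinases that mark PER proteins for decay, and the ubiquitin ligases that clear PER and CRY proteins. Of 24 listed, 21 were tested; Npas2, a relative of Clock that can pair with Arntl, had 1 count in all, Rorb 0, and Arntl2 29. For diet the libraries of 7 were higher without overlap and of none lower, against 15.4% and 14.8% of all genes. In edgeR 5 had an unadjusted p under 0.05, beside 22.4% of all genes. For diet 1 was called higher and none lower, beside 1.50% and 1.49% of all genes. That gene was Bhlhe40 (DEC1), a repressor that competes for E-boxes, which went from 109 ± 30.8 to 230 ± 2.27 CPM (log2 fold change 1.08, SE 0.24, adjusted p = 0.03). Its call was lost in 5 of 9 fits without a library, namely normal diet replicate 2 or 3 or any high fat vehicle library (adjusted p up to 0.108).

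For the ligand none of these 21 passed in edgeR, DESeq2 or limma-voom, and 4 had an unadjusted p under 0.05 in edgeR, a share no higher than the 23.7% over all genes. The smallest p was that of Sirt1, a deacetylase that acts on clock proteins, at 9.72 ± 4.07 CPM with vehicle and 5.01 ± 0.148 CPM with B-LGND2 (log2 -0.95, adjusted p = 0.0969). The medians of the list were 0.23 for diet and -0.21 for the ligand.

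Among clock output genes, 11 were tested, and edgeR called 1 higher for diet, beside 1.50% of all genes. Nfil3, a repressor at D-boxes such as those in the Per3 window, rose with diet from 32.5 ± 3.52 to 87.8 ± 27.8 CPM (log2 fold change 1.43, SE 0.32, adjusted p = 0.0293). That call was lost without normal diet replicate 2 or 3 or any high fat vehicle library (adjusted p up to 0.13). Noct (Nocturnin), a rhythmic phosphatase of nicotinamide cofactors, did not pass in edgeR at 0.97 (adjusted p = 0.0521). For diet DESeq2 called 3 higher (Nfil3, Noct and Hlf, a D-box activator) and limma-voom called Nfil3 and Noct. Over all 12102 genes DESeq2 called 393 higher for diet and limma-voom 188, beside 182 in edgeR. None of the 11 was called lower for diet. The libraries of 6 were higher without overlap and those of 1 lower, against 15.4% and 14.8% of all genes. None passed for the ligand in edgeR, where 5 had an unadjusted p under 0.05 beside 23.7% of all genes. DESeq2 and limma-voom each called 1 lower (Wee1, a cell cycle kinase), where they called 502 and 317 of all 12102 genes lower. The medians of the list were 0.52 and -0.36.

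Per1 and Per2 are also known as direct targets of glucocorticoid and of immediate early signalling. Of 7 glucocorticoid response genes, 2 were called higher for diet, Zbtb16 (14.9 ± 5.58 to 78.5 ± 7.98 CPM, log2 2.40) and Tat (log2 1.44). With B-LGND2 2 were called lower, Zbtb16 (log2 -1.40, to 29.7 ± 5.87 CPM) and Tsc22d3 (log2 -0.93, adjusted p = 0.0315). By estimate 6 of the 7 were higher for diet and 1 was lower, where 50.4% of all genes were higher. With B-LGND2 6 were lower by estimate and 1 was higher, where 49.7% of all genes were higher. Over all genes 1.50% were called higher for diet and 2.56% lower for the ligand. The medians of the list were 0.71 and -0.74. Without high fat vehicle replicate 1, Tat missed the threshold (adjusted p = 0.0726), as did Zbtb16 for the ligand without replicate 2 (0.0513). The Tsc22d3 call was lost in 6 of 9 such fits, without any high fat library of either group (0.0521 to 0.132).

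Of 10 immediate early genes tested, 3 were called higher for diet: Jun (log2 1.62), Junb (1.52) and Btg2 (1.21). With B-LGND2 3 were called lower: Junb (log2 -1.95, from 75.9 ± 20.8 to 19.5 ± 7.59 CPM), Egr1 (-2.49) and Btg2 (-1.04). By estimate 8 of the 10 were higher for diet and 2 were lower, where 50.4% of all genes were higher. With B-LGND2 6 were lower by estimate and 4 were higher, where 49.7% of all genes were higher. The shares of all genes called were again 1.50% and 2.56%. The medians were 1.04 and -0.36. Only Junb for the ligand was called in all 9 fits without a library. The diet calls of Jun, Junb and Btg2 were all lost without normal diet replicate 2 or high fat vehicle replicate 1, those of Jun and Btg2 without high fat vehicle replicate 2, that of Jun without normal diet replicate 3 and that of Btg2 without high fat vehicle replicate 3 (adjusted p up to 0.14). The ligand call of Btg2 was lost without normal diet replicate 2 or any high fat library, and that of Egr1 without normal diet replicate 3, replicate 1 or 3 of the high fat vehicle group, or replicate 3 of the B-LGND2 group (adjusted p up to 0.169). Their part in the values of Per1 and Per2 was not tested.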

How the data were processed

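The authors deposited raw read counts per gene, whole numbers for 45513 Ensembl gene IDs in 9 liver libraries. Per the labels' protocols, poly(A) RNA was made into amplified, barcoded libraries and sequenced on an Ion Torrent Proton. The submitters' processing notes name HTSeq 0.6.1p1, SAMtools 0.1.19, TopHat2 2.0.13, DESeq2 1.6.3, Bowtie2 2.2.4 and the build GRCm38.p3. Annotation release and strand setting are not given in these sources. Counts are reads, not molecules, and the floor of 3 counts covers counting error only.

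Symbols and gene spans came from GENCODE M21 on GRCm38 (44671 IDs matched, 842 did not), and promoter windows from RefSeq on GRCm38.p6. In R 4.3.3, edgeR 4.0.16 filtered genes (filterByExpr, minimum count 10), scaled libraries by TMM and fitted 1 robust quasi-likelihood model to all 9 libraries (6 residual degrees of freedom). The 3 two-sided contrasts were adjusted by Benjamini-Hochberg over 12102 genes, with a threshold of 0.05. The filter kept at least 99.7% of each library's counts. Levels are CPM on TMM-scaled totals, and SEs were computed from the F statistic. Intervals use the test's degrees of freedom.

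The fit was tested on simulated data. Alternatives were other scalings and filters, the DESeq2 1.42.0 Wald test, limma-voom (limma 3.58.1), no robust option, only the 2 groups compared, a replicate block, length and GC offsets, the rRNA share as a covariate, rRNA and mitochondrial genes removed, and each library left out in turn. The labels give 3 samples per group and do not say that they are separate cultures or litters, so p-values measure only the spread between these samples. No 2 libraries were alike (chi-square over degrees of freedom of at least 11.8 for every pair).

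The members and lists were chosen with earlier results of these data known. All 10 members are named. From the other lists, genes are named that passed in any contrast, and from the first 2 lists also the 1 gene with the smallest other p for diet or ligand. Of 12 listed output genes, Ccrn4l is an older symbol of Noct and was counted once. The rule for genes with a similar pattern was applied to Per1 and Nr1d1 (average log2 CPM of at least 3), and not to Arntl, whose 1 to 13 counts give no usable pattern. Marker lists of stellate cells and cholangiocytes were also summed: stellate markers gave 118 to 207 CPM with 0 of 6 called for diet or ligand, and cholangiocyte markers 5.95 to 18.1 CPM with 0 of 2 tested called.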

Additional observations from a re-analysis of the deposited data

How the results depend on the processing

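For the diet, ligand and treated comparisons, genes called numbered 362, 681 and 354. In the same order they were 1182, 1345 and 751 with no filter, 969, 1123 and 660 with DESeq2, 153, 1420 and 144 with only the 2 groups compared, and 1, 2 and 12 with the rRNA share as a covariate. Members called (2, 2 and 0) became 4, 4 and 1 with no filter, 4 and 3 for diet and ligand with DESeq2, 1 for diet and 3 for the ligand with only the 2 groups compared, and 0 for diet and ligand with the rRNA covariate. With each library left out in turn, genes called ran from 35 to 1860, 100 to 1439 and 111 to 639, and members called from 1 to 5, 0 to 3 and 0 to 1.

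With the replicate number as a replicate block, 203 genes were called for diet, the calls of Btg2 were lost for diet and ligand (adjusted p = 0.0514 and 0.0563), and members called stayed at 2, 2 and 0. The labels do not say that the numbers pair the samples. Deviations of same-numbered libraries correlated at -0.193 to 0.124 over 9 pairs, and those of other pairs at -0.125 to 0.178 over 18. Of the 9 libraries 3 correlated best with their own number. With 3 libraries per group, so few pairs cannot exclude a pairing.

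Directions that turned were these. With the rRNA covariate, the diet log2 fold change was -0.47 for Per3, -0.45 for Nr1d1 and -0.29 for Ciart. The ligand value was then 0.48 for Per2, 1.31 for Per3, -1.04 for Cry1, 2.05 for Nr1d1, 0.93 for Nr1d2, 0.58 for Ciart and 0.31 for Noct, and the treated value 0.84 for Per3, -0.023 for Cry2 and 0.29 for Ciart. Without scaling the ligand value of Clock was -0.0074. With length and GC offsets the treated value was -0.28 for Per1, -0.0050 for Cry2 and -0.080 for Nr1d1. With each library left out, the ligand value ran from -0.014 to 0.41 for Cry1 and from -0.074 to 0.41 for Clock, both lowest without B-LGND2 replicate 2. The treated value ran from -0.60 to 0.32 for Per3 (highest without normal diet replicate 1) and from -0.37 to 0.41 for Nr1d1 (lowest without B-LGND2 replicate 3, and -0.044 without normal diet replicate 3). The diet value of Sirt1 ran from -0.084 (without high fat vehicle replicate 1) to 0.51. For all of these the cause was not tested. The pseudocount moved no ratio to Arntl beyond the spread between libraries.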
